A study of Zea mays with 2 samples.

Results

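Globulins and cupins are seed proteins and enzymes that the maize genome encodes in several small families. The genes described here were chosen by their descriptions in the deposited tables, which had to contain globulin, vicilin, legumin or cupin and neither germin nor inhibitor. Globulin-2 was always included, and it was known beforehand to differ between the libraries. The rule found 15 genes of 33283. The data came from endosperm, where the maize (Zea mays) kernel stores its starch and zein protein, taken 15 days after pollination. A single value per gene came from the wild type and another from dek33, a defective kernel mutant whose gene is known to encode PyrR, an enzyme of riboflavin synthesis. No treatment is named for either group. The labels give a triplicate design, the files hold 1 value per gene and genotype, and neither the allele nor the genetic background is stated in the sources used here. No difference below has a replicate check or a test, and each compares these 2 libraries.

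Seed globulins are salt-soluble storage proteins that are laid down in vacuoles and broken down at germination to feed the seedling. In maize the vicilin-type globulins, globulin-1 and globulin-2, are the main storage proteins of the embryo, while zeins fill the endosperm. Vicilins and legumins both carry the barrel-shaped cupin fold. Plants use the same fold in enzymes and in germins, which are proteins of the cell wall.

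Levels are given in FPKM, fragment counts scaled by the length of the transcript and the size of the library, so they are per length and can be compared between genes. Summed FPKM was 761571 for dek33 and 672660 for wild type, and the read depth behind them is unknown. Over the 21688 genes with at least 1 FPKM in 1 or both libraries, the median log2 ratio of dek33 to wild type was 0.44. On the deposited scale the typical gene was thus 1.36-fold higher in dek33. The 20 genes of the zein list made up 31.2% of the summed FPKM in wild type and 16.7% in dek33. Of these, 3 zeins with 58699 FPKM in dek33 were listed at 0 in wild type. Those 0 values may mark failed estimates, so the size of the difference in share is uncertain. Scaling to equal totals without zeins brought the median to 0.06, and the part of the zeins in the shift was not tested. Ratios are log2((dek33 + 1)/(wild type + 1)), which understates the change of low genes, and a centred ratio has that median of 0.44 subtracted. Genes are called higher or lower where this ratio reached 2-fold and the level was at least 5 FPKM in 1 or both libraries.

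The 15 genes were placed in 6 classes, the embryo globulins, alpha globulin and legumin by hand and the others by description. The legumin-like class took in putative rmlC-like cupins, among them GRMZM2G034724, whose description does not contain legumin. There were 2 embryo globulins, 1 alpha globulin, 1 legumin, 3 legumin-like genes, 7 genes described as RmlC-type cupins and 1 described as an enzyme of the cupin family. Of the 15, 11 had at least 5 FPKM in 1 or both libraries. Of these 11, 3 were lower in dek33, 0 were higher and 8 were neither. Over all 14348 genes at this level, 4.02% were lower and 14.8% higher. After centring, 4 members were lower and 0 higher, against 6.79% lower and 4.4% higher over all genes. Because the genes were chosen with these values known, nothing is read from the difference between these shares. The member just past the limit was globulin-1, with a log2 ratio of -2.72, and the nearest one short of it was the alpha globulin, at -0.91. No member was listed at 0 in either library.

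**Figure D1:**
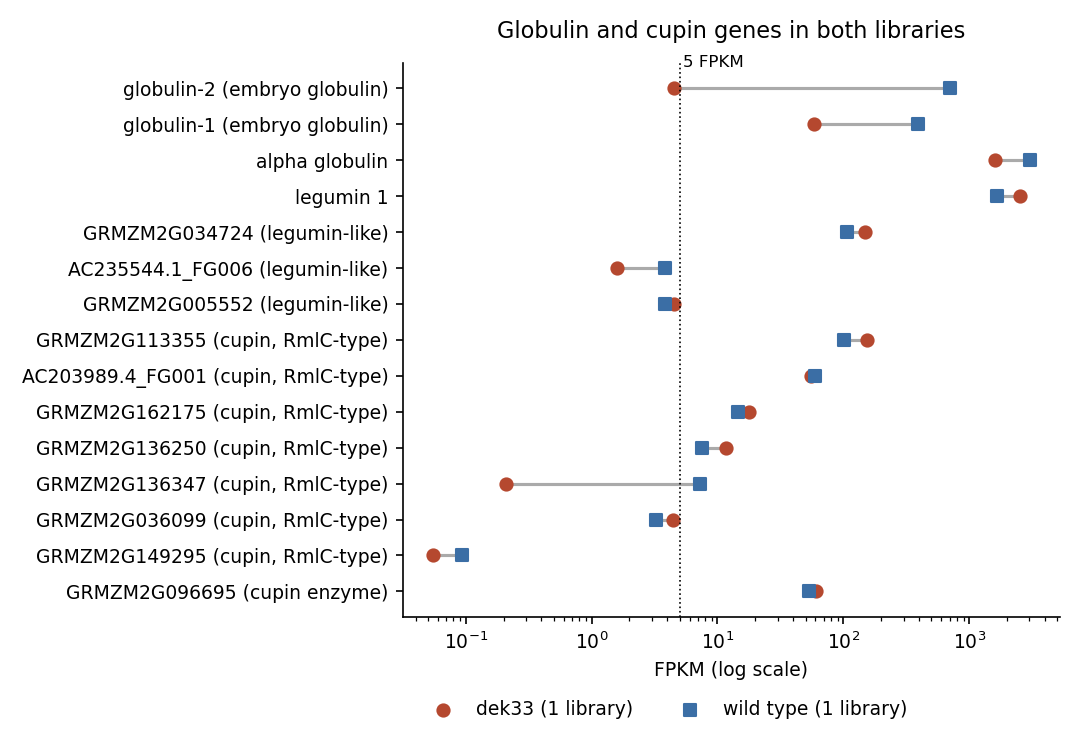
FPKM of each of the 15 globulin and cupin genes on a log axis, with circles for the dek33 library and squares for the wild type library, 1 library each, and a dotted line at 5 FPKM. The wide gaps belong to globulin-2 (4.53 in dek33 against 700.0 in wild type), globulin-1 (58.8 against 394) and the cupin GRMZM2G136347 (0.208 against 7.24).

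Both embryo globulins were lower in the dek33 library, by very different amounts. Globulin-2 (glb2, GRMZM2G026703, chromosome 1, 287133859 to 287135934, B73 RefGen_v3) had 4.53 FPKM in dek33 and 700.0 in wild type. By level it ranked 75 among all genes in wild type and 14202 in dek33. Its log2 ratio was -6.99, and the quotient of the deposited values was 154-fold. Among the 14348 genes at 5 FPKM or more, 1 had a lower ratio, and that gene was listed at 0 in dek33. Since globulin-2 was included as a gene known to differ, this rank is a description only.

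Globulin-1 (glb1, GRMZM2G067919, chromosome 1, 258423143 to 258426448), described as the S allele, is the other abundant vicilin-type protein of the maize embryo. It had 58.8 FPKM in dek33 and 394 in wild type, which is 6.69-fold lower with a log2 ratio of -2.72. Unlike globulin-2 it remained well above 5 FPKM in dek33. The ratio between these 2 genes within a library does not depend on how the libraries were scaled. Globulin-1 stood at 0.562 times the level of globulin-2 in wild type and at 13.0 times its level in dek33, so their order was reversed.

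The labelled tissue was checked against markers of the embryo, since the wild type library carried much embryo globulin RNA. The embryo and scutellum list holds oleosins, a steroleosin, late embryogenesis proteins, TIP3 aquaporins, the peroxiredoxin PER1, viviparous-1 and leafy cotyledon1, and its 20 genes summed to 4592 FPKM in dek33 and 13556 in wild type. Of its 18 genes at 5 FPKM or more, 14 were lower in dek33 and 0 higher, with a median log2 ratio of -2.34 over the 20 genes. Late embryogenesis proteins are thought to protect drying cells, and among them EMB564 (AC233879.1_FG002) had 53.2 against 3482 and D-34 (GRMZM2G025857) 0.291 against 62.2. Not every late embryogenesis gene was lower: GRMZM2G000777 had 15.8 in dek33 against 7.98 in wild type, GRMZM2G072890 had 7.50 against 7.59, and GRMZM2G096475 had 14.9 against 18.2. A single aquaporin, TIP3.1 (GRMZM2G037327), carried most of the dek33 sum with 3917 against 4438. Without it the list summed to 675 in dek33 and 9118 in wild type, 13.5-fold lower. No marker of the list was listed at 0, and 9 of the 18 had a lower ratio than globulin-1 and 0 a lower ratio than globulin-2. Leafy cotyledon1, under 5 FPKM in both libraries, had 2.12 in dek33 against 0.295 in wild type. It counted as 1 higher gene with a minimum of 1 FPKM. Oil bodies are stores of the aleurone too, so the list does not mark the embryo alone. Most of the embryo markers thus moved with the embryo globulins, and their part in the globulin values was not tested. In bulk tissue, fewer cells of a type and less RNA per cell cannot be told apart. How much embryo tissue entered either library labelled as endosperm was not tested.

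Markers of other kernel tissues were spread differently. The 3 aleurone markers at 5 FPKM or more, among them the vacuolar pyrophosphatase vpp1 (GRMZM2G069095, 53.4 in dek33 against 45.4 in wild type), had 0 higher and 0 lower. Of 9 basal transfer layer markers at that level, 3 were lower and 1 higher, and after centring 6 were lower and 1 higher. BET1 (GRMZM2G082785), a peptide of these uptake cells, had 84.9 against 177. The higher one, GRMZM2G113203 (5.83 against 1.28), was matched through the synonym MRP1, and whether it marks these cells was not tested. It also carries the symbol mrpa1 and is described as uncharacterized, so it may be a match by name alone. The count of 1 higher marker rests on this gene. Among the starchy endosperm markers, 13 of 23 were lower and 3 higher, and all of these 16 were zeins. The 3 higher ones were listed at 0 in wild type, which may mark failed estimates. Without genes listed at 0, 13 were lower and 0 higher.

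The most abundant members were the storage globulins known from maize endosperm, and they went in opposite directions. Legumin 1 (leg1, GRMZM2G174883, chromosome 6, 40050689 to 40052652), a relative of the legumins of peas and beans, had 2513 FPKM in dek33 and 1647 in wild type. The alpha globulin (glb3, GRMZM2G410134, chromosome 6, 156729182 to 156730333), a small globulin that in rice belongs to the prolamin superfamily and not to the cupins, had 1605 in dek33 and 3025 in wild type. Their log2 ratios of 0.61 and -0.91 both fell short of 2-fold. After centring, legumin 1 stood at 0.17, and the alpha globulin, at -1.35, passed the limit as lower. Legumin 1 was at 0.545 times the alpha globulin in wild type and at 1.57 times in dek33, a change of 2.88-fold in a ratio that no scaling alters.

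Other abundant genes gave a frame for these values. Outside the zein list, 62 genes had at least 1000 FPKM in 1 or both libraries, and their median log2 ratio was 0.59. Of these, 11 were at least 2-fold lower in dek33 and 21 at least 2-fold higher. Legumin 1, at 0.61, had the ratio of rank 30 from the top among them, near the middle, and the alpha globulin that of rank 12 from the bottom. Of the 20 genes in the zein list, 13 had a lower ratio than the alpha globulin. Besides alpha zeins and a delta zein, the list holds floury1 (GRMZM2G094532, 89.2 in dek33 against 88.7 in wild type). Its description is that of a membrane protein of zein protein bodies. No description in the list names a beta or gamma zein, so sums over the list may leave out zeins. The 3 zeins with a higher ratio than legumin 1 were listed at 0 in wild type, which may mark failed estimates in families of near-identical copies.

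The 4 storage globulins, the embryo pair with legumin 1 and the alpha globulin, made up 94.1% of the members' FPKM in wild type and 90.1% in dek33. Within these 4, legumin 1 accounted for 28.6% in wild type and 60.1% in dek33. The alpha globulin accounted for 52.5% and 38.4%, globulin-1 for 6.82% and 1.41%, and globulin-2 for 12.1% and 0.108%. The embryo pair therefore took a sizeable part of the wild type globulin RNA and very little of that in dek33. All 15 members summed to 6126 FPKM in wild type and 4641 in dek33, which is 0.911% and 0.609% of each library. Set against the summed zeins, the members stood at 2.92% in wild type and 3.66% in dek33, with the 3 zeins listed at 0 in wild type included. Those 3 carried 58699 FPKM in dek33, and without them the dek33 figure was 6.80%.

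**Figure D2:**
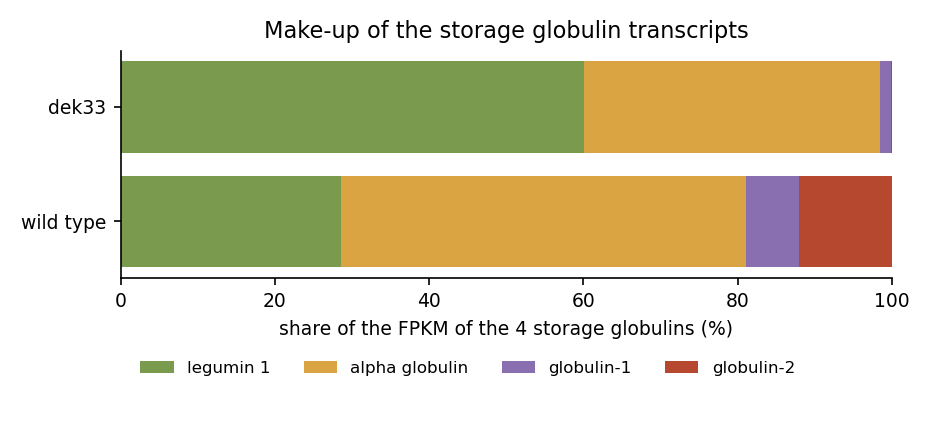
Share of legumin 1, alpha globulin, globulin-1 and globulin-2 in the summed FPKM of these 4 genes, in percent, with 1 bar for each library. Legumin 1 takes 60.1% in dek33 and 28.6% in wild type, and globulin-2, at 12.1% in wild type, is too thin to see in dek33 at 0.108%.

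The 3 legumin-like genes did not share a direction. GRMZM2G034724 (cl2-2, chromosome 6, 34438653 to 34440618), which lies 5.61 Mb from legumin 1, had 149 FPKM in dek33 and 106 in wild type, a log2 ratio of 0.49. Legumin 1 exceeded it 16.8-fold in dek33 and 15.6-fold in wild type, so the levels of these genes kept nearly the same proportion in both libraries. GRMZM2G005552 (cl2-1, chromosome 8) had 4.52 against 3.81. AC235544.1_FG006 (chromosome 9) had 1.59 against 3.86. The last 2 were below 5 FPKM in both libraries and were not called.

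Among the 7 RmlC-type cupins, 1 stood apart. These genes are named after a bacterial enzyme of rhamnose synthesis with the same fold, and their own roles are not given in the files. GRMZM2G136347 (chromosome 1, 182319467 to 182320591) had 0.208 FPKM in dek33 and 7.24 in wild type. Its log2 ratio of -2.77 was close to that of globulin-1, although its wild type level was far lower. Because the dek33 value is so small, the ratio depended on the pseudocount, from -4.58 with 0.1 to -1.23 with 5. It passed 2-fold with each.

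The other cupins differed little. GRMZM2G113355 (chromosome 6) had 154 FPKM in dek33 and 101 in wild type, and AC203989.4_FG001 (chromosome 1) had 55.2 and 59.7. GRMZM2G162175 (chromosome 3), whose locus overlaps that of a beta-galactosidase gene, had 17.9 and 14.5, and GRMZM2G136250 (chromosome 8) had 11.7 and 7.50. The cupin family enzyme GRMZM2G096695 (chromosome 10) had 60.5 and 53.1. With GRMZM2G034724, these were the 6 members outside the storage globulins that reached 5 FPKM without being called, and 5 of them had more FPKM in dek33. Their log2 ratios ran from -0.11 to 0.61, and from -0.55 to 0.17 after centring, around the median of all expressed genes. GRMZM2G036099 (chromosome 3), at 4.47 and 3.26, and GRMZM2G149295 (chromosome 7), at 0.055 and 0.0931, were below 5 FPKM. Together the 11 members that are not among the 4 storage globulins summed to 459 in dek33 and 360 in wild type, 1.28-fold higher.

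**Figure D3:**
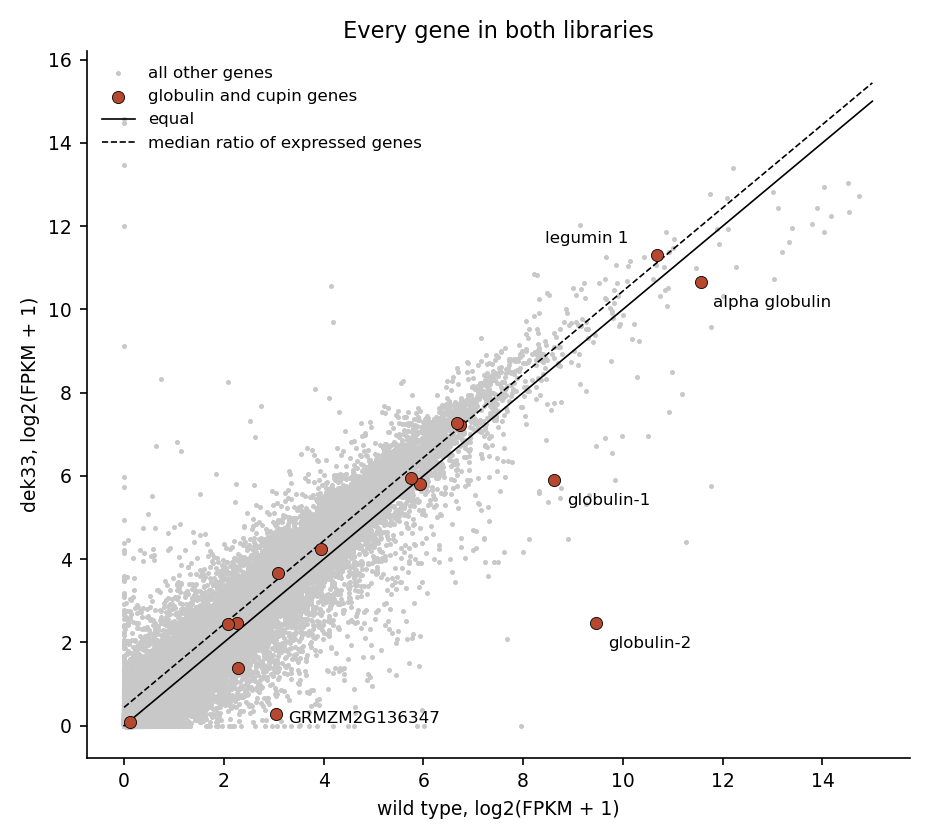
Level of every gene in the dek33 library against the wild type library, each as log2(FPKM + 1), with the 15 globulin and cupin genes as large points, a solid line at equality and a dashed line at the median log2 ratio of 0.44. Globulin-2, globulin-1 and GRMZM2G136347 lie well below the body of points, while legumin 1 lies near the dashed line.

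The 3 lower members all lie on chromosome 1, which holds 4 of the 15 genes. Globulin-1 and globulin-2 are 28.7 Mb apart there, and GRMZM2G136347 is 5.53 Mb from AC203989.4_FG001, the chromosome 1 member that was not lower. Of all chromosome 1 genes at 5 FPKM or more, 4.82% were lower, compared with 3.44% to 4.43% on the other numbered chromosomes. The 3 nearest genes on each side of the 3 lower members gave 18 neighbours, of which 4 reached 5 FPKM. These lie beside globulin-1 and globulin-2, with 0 beside GRMZM2G136347. None of the 4 was lower, and their log2 ratios ran from 0.41 to 0.86. With 4.82% of chromosome 1 genes lower, 0 of 4 would be usual, so nothing is read from this count. For globulin-2, the neighbours at that level were GRMZM5G856966 (12.9 in dek33 against 6.67 in wild type) and GRMZM2G017299 (17.7 against 10.8). A nearby lipid transfer protein gene, GRMZM2G006047, was listed at 0 in dek33 and had 0.13 in wild type. Over all 15 members, 39 of 90 neighbours reached 5 FPKM, and 5 of these were higher and 2 lower. Among all genes at this level, 14.8% were higher and 4.02% lower.

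**Figure D4:**
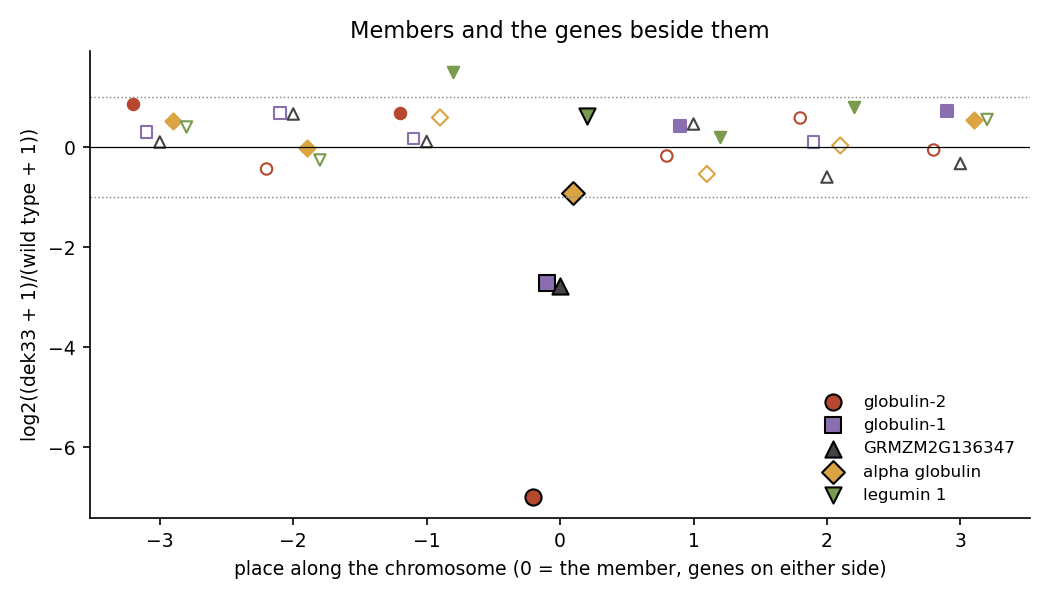
Log2((dek33 + 1)/(wild type + 1)) of 5 members, drawn large at place 0, and of the 3 genes on each side of them in chromosome order. Filled small symbols have at least 5 FPKM in 1 or both libraries, open ones less, and dotted lines mark 2-fold. The filled neighbours of globulin-1 and globulin-2 run from 0.41 to 0.86, globulin-2 itself is at -6.99, and GRMZM2G136347 has 0 filled neighbours.

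The genes for proteins that carry globulins to the vacuole and cut them there mostly fell short of the 2-fold limit. Of 5 such genes at 5 FPKM or more, 1 was lower, 0 higher and 4 neither, with a median log2 ratio of 0.12. The lower one, vacuolar processing enzyme 1 (vpe1, GRMZM2G463291), belongs to the proteases that cut legumin-type precursors after asparagine, and had 4.12 FPKM in dek33 against 25.7 in wild type, a ratio of -2.39. The beta isozyme of the same family (GRMZM2G062554) had 103 against 70.1, and the putative legumain see2a (GRMZM2G081626) 11.2 against 5.77. Vacuolar sorting receptor 1 (GRMZM2G067546), which binds storage proteins on their way to the vacuole, had 28.3 against 26.0. The aspartic proteinase related to oryzasin-1 (GRMZM2G065757) had 170 against 159.

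Regulators of seed maturation and storage gene expression showed 1 lower gene. Of 6 at 5 FPKM or more, 1 was lower, 0 higher and 5 neither, and the median log2 ratio over 8 expressed genes was 0.42, near that of all genes. Viviparous-1 (GRMZM2G133398), the transcription factor on which globulin-1 expression in the maize embryo is known to depend, had 5.86 in dek33 against 12.7 in wild type. It barely met the 2-fold limit, and the call was lost with a pseudocount of 5, a minimum of 20 FPKM or a 4-fold limit. Viviparous-1 is also counted in the embryo list above. Leafy cotyledon1 (GRMZM2G011789), another embryo regulator, had 2.12 against 0.295, so both libraries were under 5 FPKM. The endosperm regulators opaque-2 (GRMZM2G015534) and the prolamin-box binding factor PBF (GRMZM2G146283) had 466 against 245 and 82.5 against 68.7. Also among the 5 was GRMZM2G146267, an entry with the same name PBF, at 17.5 against 14.6, so this name was counted more than once. The list also took in viviparous10 (GRMZM2G067176, 32.0 against 18.9) and an ABI3-interacting protein (GRMZM2G070054, 44.1 against 40.2).

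Genes of oil bodies, which fill the embryo beside the globulins, were mostly lower. Of 9 oleosin, steroleosin and caleosin genes, 7 were lower and 0 higher, and the median log2 ratio was -3.04. All 7 lower ones also belong to the embryo list above, so the lists are not separate results. Without them, 7 of the other 11 embryo markers at 5 FPKM or more were lower and 0 higher. Oleosin ole17 (GRMZM2G480954) had 58.3 against 922, while a caleosin (GRMZM2G342685) had 190 against 131. Globulin-1, at -2.72, lay close to that median. The germins, the cupin family that the rule leaves out, were hardly expressed. Of 6 germin genes, 1 reached 5 FPKM (GRMZM2G045809, 7.75 in dek33 against 1.66 in wild type), and it was higher. That call was lost with a pseudocount of 5, a minimum of 20 FPKM or a 4-fold limit.

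**Figure D5:**
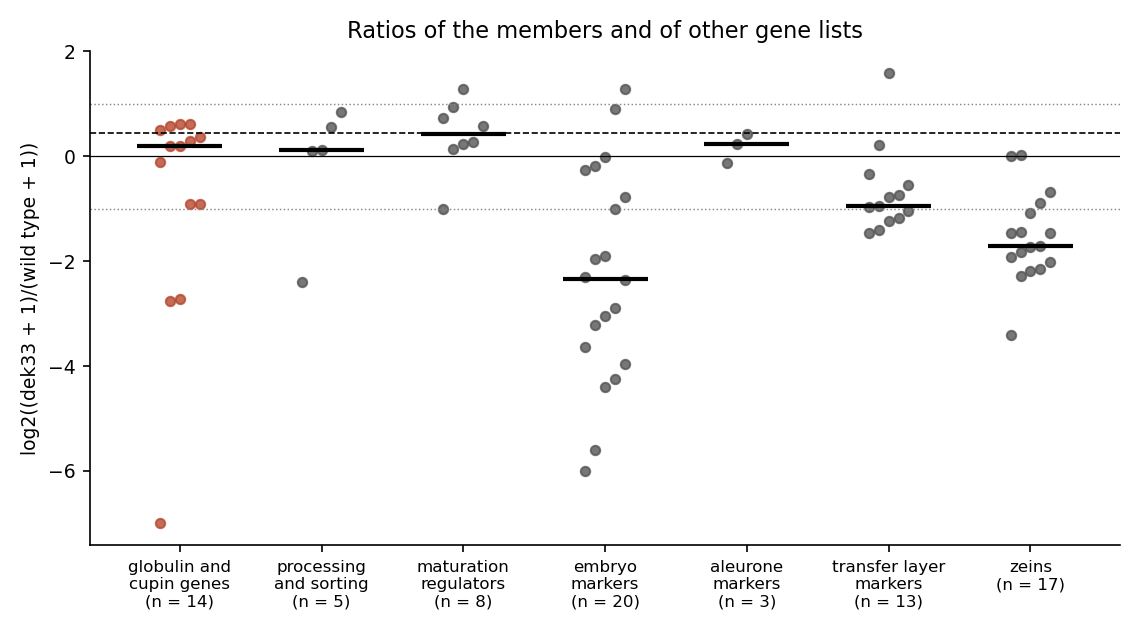
Log2((dek33 + 1)/(wild type + 1)) of the members and of 6 other lists, 1 point per gene with at least 1 FPKM in 1 or both libraries and a bar at each median, with 3 zeins listed at 0 in wild type left out. A solid line marks 0, a dashed line the median of all expressed genes at 0.44 and dotted lines 2-fold; most members lie near the dashed line, and globulin-2 at -6.99 lies below every embryo marker.

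The genes nearest to globulin-2 in level were found by the distance in log2(FPKM + 1) over the 2 libraries, leaving out members and genes without a name. The nearest was GRMZM2G114552, an uncharacterized gene, with 3.25 in dek33 against 203 in wild type at a distance of 1.82. Next came the seed aquaporin TIP3-1 (GRMZM2G305446, 21.5 against 475, distance 2.10), the jasmonate-induced protein gene GRMZM2G025959 (17.0 against 254, 2.24), an oleosin Zm-II gene (GRMZM2G410152, 21.3 against 276, 2.42) and a stress-inducible membrane pore protein gene (GRMZM2G103771, 11.1 against 156, 2.44). With 2 libraries this likeness describes levels alone.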

How the data were processed

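RNA sequencing values from 1 dek33 and 1 wild type endosperm library were used, each grouped by its genotype label. The deposited values are FPKM, computed by the authors. The submitters' processing notes name Bowtie 0.12.2 and, as the genome build, B73 RefGen_v3. Which program computed FPKM, with which annotation and filters, and whether replicates were pooled, the sources used here do not state. Both tables list the same 33283 genes, and 1e-05 stands in the place of 0 for 1330 genes in dek33 and 2022 in wild type, counting any value below it. Such a value can be a failed estimate, so no fold is given against it. Ratios between low values were spread smoothly (4314 genes below 0.3 FPKM in each library, with at most 2.2% of them in any interval of 0.05 on the log2 scale), so whole reads could not be recovered, depth is unknown and no counting interval is given.

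File starts were raised by 1, because the length of short predicted models is then divisible by 3 in 77.9% of 610 cases and otherwise in 10.7%. Names come from the tables' descriptions and, for names alone, from RefSeq's table of genes on the NAM-5.0 assembly, which matched 13 of the 15 members. Ratios are log2 of FPKM with a pseudocount of 1. With 1 value per genotype there was no test. Every member is reported, with the 2 highest, 2 lowest and 2 most abundant genes of the other lists as candidates for naming. GRMZM2G067546, GRMZM2G096475, GRMZM2G146267, leafy cotyledon1 and the neighbours named beside globulin-2 were named after their values were seen. The members, lists and rules were chosen with earlier results of these data known. Word patterns can take in wrong genes and miss right ones. The alternatives were other pseudocounts, filters, scalings and a 4-fold limit. The procedure was tested on simulated data with no overall shift between the libraries, so that check does not cover the shift seen here. Python 3.11.15, numpy 2.4.6, pandas 2.3.3 and matplotlib 3.10.9 were used.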

Additional observations from a re-analysis of the deposited data

How the results depend on the processing

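The 3 lower members and 0 higher members were the counts under both other pseudocounts, no filter, a minimum of 1 FPKM, a 4-fold limit and without genes listed at 0, the last chosen after seeing the data. The lower count was 4 when centred and under the 3 rescalings (factors of 1.43 by trimmed mean of M values, 1.40 by upper quartile and 1.37 by equal totals without zeins), and 2 with a minimum of 20 FPKM, where fewer genes are tested. The median log2 ratio of the members turned from 0.19 to -0.25 when centred, -0.27 by trimmed mean, -0.24 by upper quartile and -0.21 without zeins, so it shows no direction. Globulin-2 ran from -7.43 when centred to -6.21 with a pseudocount of 5, which draws ratios toward 0 by construction.

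Over all genes, 2118 were higher and 577 lower. These counts became 1038 and 347 with a pseudocount of 5, 1203 and 247 with a minimum of 20 FPKM, and 219 and 196 at a 4-fold limit, while no filter and a minimum of 1 FPKM each gave 894 lower. Centring gave 632 and 974, trimmed mean scaling 579 and 986, upper quartile scaling 622 and 955, and equal totals without zeins 659 and 919. Of the comparisons between settings for single members other than globulin-2, 82 moved by less than 1.5-fold and 2, both of GRMZM2G136347, by more. For the other lists, 262 counts and medians kept within 1.5-fold and 25 did not, mostly counts of transfer layer markers, maturation regulators and germins. No paired analysis was possible because there is 1 library for each genotype, and unknown depth limits what low values show.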
